A study of Mus musculus with 6 samples.

Results

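The tumour suppressor p53 (*Trp53*), its inhibitors *Mdm2* and *Mdm4*, and the 6 target genes *Ccng1*, *Phlda3*, *Zmat3*, *Trp53inp1*, *Aen* and *Gtse1* were followed in haematopoietic stem cells (HSCs) from mice with a conditional deletion of *Maea*, which encodes an E3 ubiquitin ligase. These 9 genes were picked by symbol, 9 of the 46959 genes listed. RNA-seq was performed on 6 bulk libraries of HSCs sorted from mouse bone marrow as CD150+ CD48- Lineage- Sca-1+ c-Kit+ cells, 3 from control and 3 from MaeaCsf1r-Cre mice. Each library came from about 2000 cells pooled from a pair of mice, so single animals were not measured and p-values describe the spread between pools. The labels give the mice as adult littermates 8 weeks old, while the study's methods allow a wider span of young adult ages and both sexes. MaeaCsf1r-Cre mice carry floxed *Maea* alleles and a *Csf1r*-iCre transgene on a C57BL/6 background. *Csf1r* is best known as a gene of monocytes and macrophages, so deletion in these mice cannot be taken as restricted to HSCs. The control mice are labelled only as control. The study's supplement describes routinely genotyped control mice as floxed (fl/fl) without Cre, while an assay of transplantation also used fl/+ littermates with the transgene, and which of these gave the libraries is not stated. No treatment is given for either group. Expression is given as CPM, which scales the reads of a gene to the total reads of its library.

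p53 is a transcription factor that is made continuously and destroyed almost as fast. MDM2 is the E3 ubiquitin ligase that marks p53 for the proteasome, MDM4 binds MDM2 and blocks the activation domain of p53, and DNA damage or other stress breaks this hold. Stabilised p53 then binds pairs of half-sites in DNA and switches on genes for cell cycle arrest, DNA repair, apoptosis and its own inhibition, *Mdm2* among them. In HSCs p53 is known for keeping cells quiescent and for removing damaged ones. Because p53 is controlled mainly at the protein level, the level of *Trp53* RNA alone does not report its activity, and the RNA of its target genes is the usual readout.

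The DNA that p53 recognises was looked for at the members' own start sites, since the target genes are grouped by this binding. A p53 half-site is a run of purines, a core of C and G around A or T letters, and a run of pyrimidines, and an element is a pair of half-sites. Windows of 250 bases before to 50 bases after each transcript start were taken from RefSeq (GRCm38.p6) and existed for 7 of the 9 members. The sequences below run 5′ to 3′ on the strand of the gene, with the half-site or the element in capitals. The stretch before the start of *Trp53* is chr11:69580109-69580308 (+), that of *Mdm2* is chr10:117710809-117711008 (-) and that of *Ccng1* is chr11:40755337-40755536 (-). The sites of *Aen* at chr7:78895927-78895956 (+) and *Gtse1* at chr15:85859940-85859969 (+) are shown with short flanks.
Trp53: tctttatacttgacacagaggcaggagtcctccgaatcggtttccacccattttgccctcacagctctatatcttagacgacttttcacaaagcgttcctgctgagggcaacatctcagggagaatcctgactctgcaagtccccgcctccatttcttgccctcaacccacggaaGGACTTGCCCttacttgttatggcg
Mdm2: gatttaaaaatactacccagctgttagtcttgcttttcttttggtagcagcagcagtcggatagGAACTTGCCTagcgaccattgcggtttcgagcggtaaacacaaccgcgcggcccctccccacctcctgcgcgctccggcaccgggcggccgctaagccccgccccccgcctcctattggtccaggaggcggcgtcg
Ccng1: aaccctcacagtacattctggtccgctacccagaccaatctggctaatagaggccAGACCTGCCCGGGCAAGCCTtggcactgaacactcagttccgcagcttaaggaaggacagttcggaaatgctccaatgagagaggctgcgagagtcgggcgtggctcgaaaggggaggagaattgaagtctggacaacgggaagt
Aen: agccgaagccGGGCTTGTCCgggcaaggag
Gtse1: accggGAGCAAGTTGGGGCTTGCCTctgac

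An exact half-site stood in a window of 5 of these 7 members, namely *Trp53*, *Mdm2*, *Ccng1*, *Aen* and *Gtse1*, and in 8.36% of all 32851 windows. A pair of half-sites, allowing 1 mismatch outside the C and G of the core and a gap of up to 13 bases, was found for *Ccng1* and *Gtse1* and in 0.627% of all windows. *Gtse1* held 2 overlapping matches of this kind, and the sequence above shows the first in capitals. The second, at chr15:85859955-85859975 (+), had 1 mismatch and a gap of 1 base. The half-site of an element was counted in both searches, and both strands were read. Members and other targets were counted by gene, if any window of the gene matched, while the shares are of windows. The 7 members had 10 windows, so the counts and the shares are not in the same unit. No match was found for *Mdm4* or *Phlda3*, which says only that these letters are not in these windows. Of 31 other p53 targets with a window, 11 held a half-site and 3 held an element. The window of *Cdkn1a* held a pair of overlapping matches. The match without mismatch, at chr17:29090906-29090937 (+), read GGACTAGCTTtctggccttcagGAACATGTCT, with the gap in lower case, and the match with 1 mismatch and no gap, at chr17:29090928-29090947 (+), read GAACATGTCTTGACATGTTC. These matches describe the DNA and were not tested for binding.

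The libraries were first compared for features that could move with any gene. The targeted gene *Maea* on chromosome 5 measured 108, 116 and 123 CPM in control and 76.9, 88.6 and 100.98 CPM in MaeaCsf1r-Cre libraries. Each MaeaCsf1r-Cre library lay below each control library, as in 6.06% of all genes tested. The log2 fold change of -0.39 (standard error 0.13) did not pass the test (limma adjusted p of 0.967, or 0.218 under the replicate block). Exons were not separated, so the extent of deletion was not measured. The depth behind the scaling was 32927000 to 39575000 reads in control and 44119000 to 60900000 reads in MaeaCsf1r-Cre libraries, without overlap. The 11 HSC markers were all detected, with sums of 1084 to 1682 CPM in control and 731 to 1283 CPM in MaeaCsf1r-Cre libraries. They include *Cd48*, which the gate excludes, at 12.4 to 46.5 CPM over the 6 libraries. *Flt3* is listed too, although the study's gating uses it for lymphoid-primed multipotent progenitors and not for HSCs. *Flt3* measured 67.2, 120 and 34.4 CPM in control and 15.7, 33.7 and 37.0 CPM in MaeaCsf1r-Cre replicates 1, 2 and 3. Transcripts of macrophages summed to 20.8 to 72.7 CPM in control and 3.49 to 48.2 CPM in MaeaCsf1r-Cre libraries, with 5 of 10 markers lower in each MaeaCsf1r-Cre library than in each control library. These include *Cd5l*, which was too low to test, while the share of 6.06% covers only genes tested. B cell markers summed to 33.8 to 55.4 CPM against 13.9 to 27.0 CPM, with 1 of 7 markers lower without overlap and *Pax5* listed at 0 throughout. Granulocyte markers summed to 76.8 to 302 CPM against 76.0 to 164 CPM, with 2 of 10 markers lower without overlap and *Ly6g* at 0. The 2 markers were *S100a9* and *Ngp*, both too low to test, at no more than 0.480 and 0.833 CPM in any library. Erythroid markers summed to 854 to 3894 CPM against 1646 to 4152 CPM and megakaryocyte markers to 213 to 969 CPM against 284 to 593 CPM. No marker of the HSC, erythroid or megakaryocyte lists was lower or higher without overlap. T cell markers reached at most 0.151 CPM in any library. Their part in the values of the p53 genes was not tested, and in bulk RNA fewer cells of a type cannot be told apart from less RNA per cell.

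*Trp53* RNA was abundant, above 96.1% of the genes tested, and its groups were close to each other. *Trp53* lies on chromosome 11 at chr11:69580359-69591873 (+) and measured 217, 197 and 190.2 CPM in replicates 1, 2 and 3 of the controls against 224, 209 and 204 CPM in the same replicates of the MaeaCsf1r-Cre group. Replicate 1 was highest in both groups, and the groups overlapped. The mean was 201 ± 14.1 CPM in control and 213 ± 10.4 CPM in MaeaCsf1r-Cre HSCs (SD, n = 3 each). The log2 fold change was 0.08 with a 95% interval of -0.18 to 0.33 (adjusted p = 0.967 from limma, over all 12955 genes tested). *Trp53* was also among the steadiest genes within a group, with a smaller within-group SD in only 4.50% of genes tested. A processed copy of the gene, *Trp53-ps*, was listed at 0 in all 6 libraries. The paralogues *Trp63* and *Trp73*, which encode the p53 relatives p63 and p73, were listed at 0 in all 6 libraries as well.

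**Figure D1:**
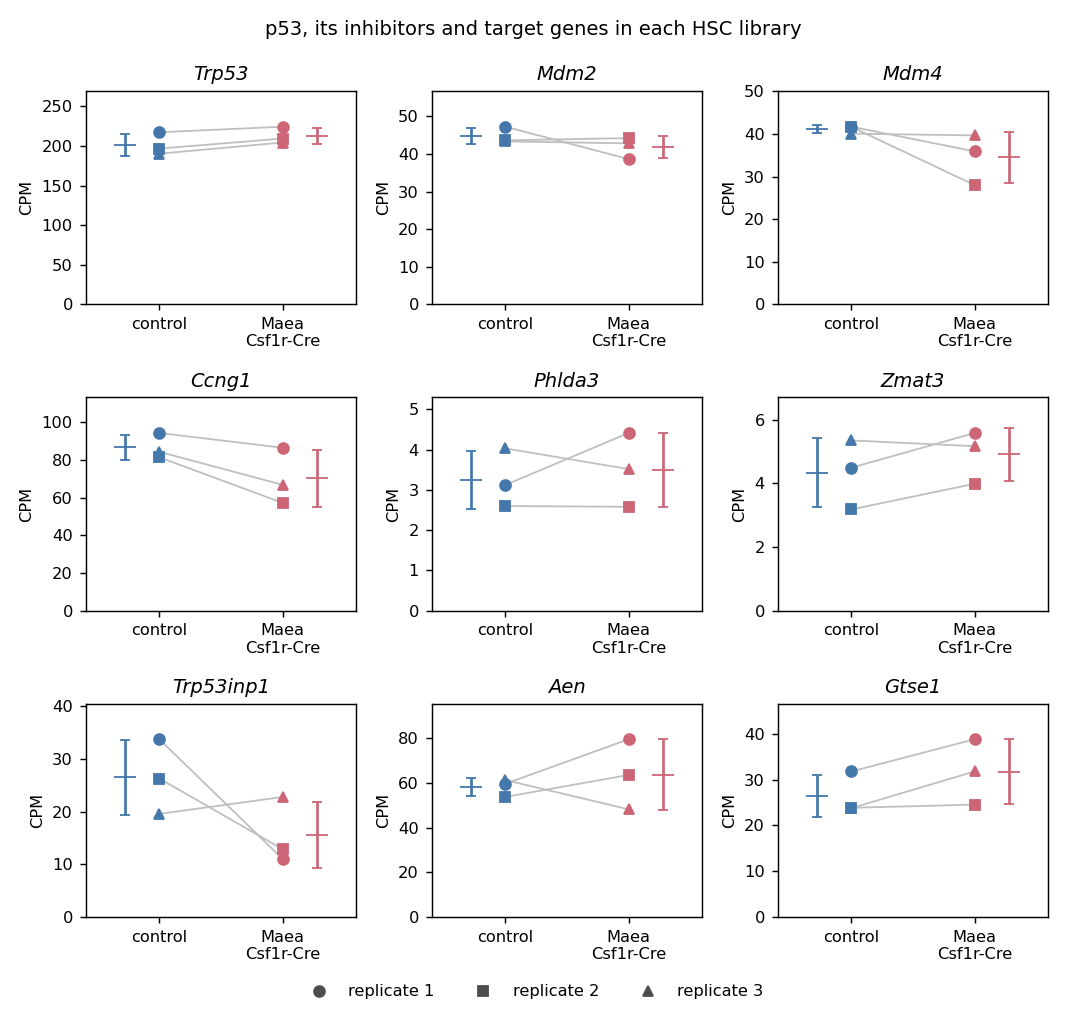
Expression of each of the 9 genes in CPM (y axes, each from 0) in the 3 control and 3 MaeaCsf1r-Cre libraries, with 1 point per library, the marker shape giving the replicate number, and the group mean with its SD. *Trp53* runs from 190.2 to 224 CPM with overlapping groups, *Mdm4* is the gene whose groups do not overlap, and *Trp53inp1* has 2 MaeaCsf1r-Cre libraries below each control library and 1 among them.

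*Mdm2*, the E3 ligase of p53 and itself a p53 target, was as steady as *Trp53*. *Mdm2* (chr10:117688875-117710758, -) measured 47.2, 43.6 and 43.3 CPM in control and 38.6, 44.2 and 42.8 CPM in MaeaCsf1r-Cre replicates 1, 2 and 3. MaeaCsf1r-Cre replicate 1 was lowest and the other two lay within the control values or just under them. The means were 44.7 ± 2.18 and 41.9 ± 2.90 CPM (SD, n = 3 each). On the log2 scale the difference was -0.09 with a 95% interval of -0.38 to 0.20 (adjusted p = 0.967, limma). Only 4.42% of genes tested had a smaller within-group SD. With a correction for transcript length the sign of this difference turned, to 0.02. The p53-responsive promoter of *Mdm2* is known to lie in its first intron, outside the window printed above, and the values here do not separate transcripts by promoter.

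*Mdm4*, which encodes the partner of MDM2 that holds p53 inactive, was the only member whose groups did not overlap. *Mdm4* (chr1:132959484-133030561, -) measured 41.7, 41.7 and 40.1 CPM in the controls against 35.95, 28.03 and 39.7 CPM in MaeaCsf1r-Cre replicates 1, 2 and 3. The control libraries lay close together, and the highest MaeaCsf1r-Cre library, replicate 3, came just under the lowest of them. Means of 41.2 ± 0.928 and 34.6 ± 5.95 CPM (SD, n = 3 each) gave a log2 fold change of -0.26 with a 95% interval of -0.62 to 0.10, which did not pass the test (adjusted p = 0.967, limma). Among all genes tested, 6.06% had each MaeaCsf1r-Cre library below each control library, so 1 of 9 members was near this background. *Mdm4* has long transcripts, and with the length correction its difference was -0.07. The processed copy *Mdm4-ps* on the X chromosome was listed at 0.0904 to 0.367 CPM, and the pseudogene *Gm29257* within the *Mdm4* locus at 0.135 to 0.347 CPM without sharing an exon, so few reads were assigned to either pseudogene.

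Across genes, longer transcripts tended to have lower fold changes in these libraries, with a Spearman's rho of -0.262 over 12835 genes, which are not independent replicates. The median log2 fold change of all genes tested was -0.06, and 60.9% had a lower mean in MaeaCsf1r-Cre HSCs. Of the 9 members, 5 had a higher and 4 a lower mean, with a median log2 fold change of 0.08. None of the 9 passed the test at an adjusted p under 0.05 with limma, against a background of 0.00772% of genes. At an unadjusted p under 0.05, 1 member (*Trp53inp1*) was called, against 3.99% of genes. With the replicate number as a block, 2 members (*Ccng1* and *Trp53inp1*) had an unadjusted p under 0.05, against 13.9% of genes, and 0 had an adjusted p under 0.05. The 95% interval lay within a 1.5-fold change either way for 3 members, *Trp53*, *Mdm2* and *Aen*, and for 46.2% of genes. For the other 6 members the interval reached past a 1.5-fold change in at least 1 direction.

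**Figure D2:**
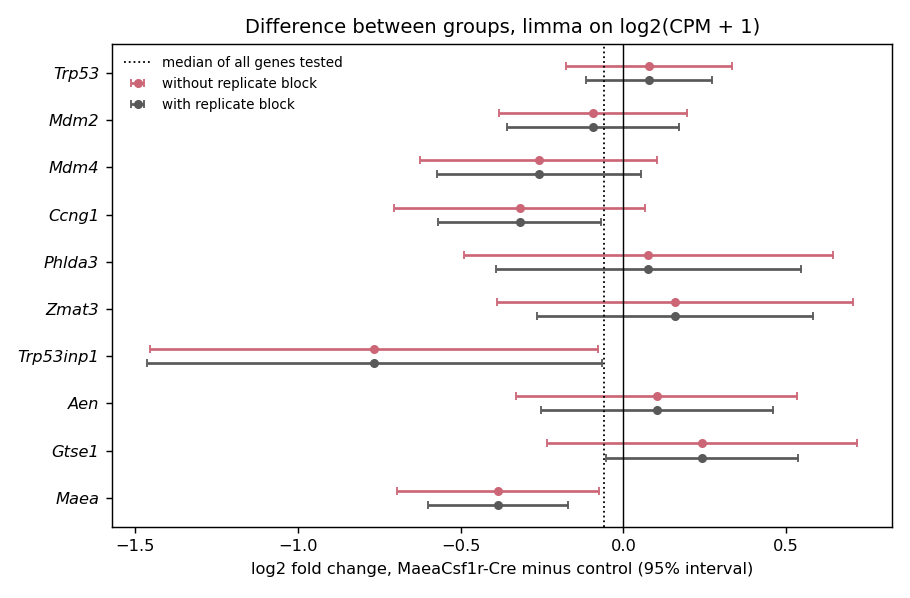
The log2 fold change (x axis, MaeaCsf1r-Cre minus control) of each of the 9 genes and of the targeted gene *Maea* (y axis, *Maea* in the bottom row). Each has its 95% interval, from limma on log2(CPM + 1), for the plain fit and for the fit that blocks on replicate number. The dotted line marks the median of all genes tested, -0.06; the interval of *Trp53inp1* reaches from -1.45 to -0.08 and that of *Trp53* from -0.18 to 0.33.

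The largest difference among the 6 target genes was that of *Trp53inp1*, whose product promotes phosphorylation of p53 under stress and takes part in autophagy. *Trp53inp1* (chr4:11156431-11174379, +) measured 33.7, 26.3 and 19.6 CPM in the controls against 11.03, 12.9 and 22.8 CPM in MaeaCsf1r-Cre replicates 1, 2 and 3. The values of replicates 1 and 2 were lower in the deleted libraries, but MaeaCsf1r-Cre replicate 3 was above control replicate 3, so the groups overlapped. The mean was 26.5 ± 7.08 CPM in control and 15.6 ± 6.32 CPM in MaeaCsf1r-Cre HSCs (SD, n = 3 each). The log2 fold change was -0.76 with a standard error of 0.30, at an unadjusted p of 0.0335 and an adjusted p of 0.967 (limma). MaeaCsf1r-Cre replicate 3 was also the deleted library with the highest *Maea* value and the highest macrophage marker sum. The part of either in the *Trp53inp1* value was not tested.

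*Ccng1* encodes cyclin G1, which recruits a phosphatase that activates MDM2. *Ccng1* (chr11:40748552-40755311, -) measured 94.4, 81.5 and 84.4 CPM in control and 86.6, 57.3 and 66.9 CPM in MaeaCsf1r-Cre replicates 1, 2 and 3. Each MaeaCsf1r-Cre library was below the control library of the same number, by 0.12, 0.50 and 0.33 on the log2 scale, although MaeaCsf1r-Cre replicate 1 lay above control replicates 2 and 3. The means were 86.8 ± 6.77 and 70.2 ± 14.9 CPM (SD, n = 3 each), at a log2 fold change of -0.32 and a standard error of 0.17. The unadjusted p was 0.0934 without and 0.0193 with the replicate block, and neither passed adjustment (adjusted p = 0.967 and 0.281, limma). A lower value in all 3 same-numbered pairs was found for 2 members, *Ccng1* and *Mdm4*, and for 23.5% of genes tested. A higher value in all 3 pairs was also found for 2 members, *Trp53* and *Gtse1*, against 13.2% of genes.

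*Aen* encodes a nuclease that digests DNA and RNA during p53-dependent apoptosis. *Aen* (chr7:78895854-78911209, +) measured 59.6, 53.7 and 61.3 CPM in control and 79.5, 63.5 and 48.2 CPM in MaeaCsf1r-Cre replicates 1, 2 and 3. The deleted libraries spread to both sides of the controls, with replicate 1 the highest and replicate 3 the lowest of all 6. The means of 58.2 ± 3.96 and 63.7 ± 15.7 CPM (SD, n = 3 each) differed by 0.10 on the log2 scale, with a 95% interval of -0.33 to 0.53. Without MaeaCsf1r-Cre replicate 1 the sign of this difference turned, to -0.07.

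*Phlda3* and *Zmat3* were the lowest members. PHLDA3 opposes AKT by competing for membrane lipids, and ZMAT3 is a zinc finger protein that binds RNA and affects splicing. *Phlda3* (chr1:135766119-135769136, +) measured 3.12, 2.60 and 4.03 CPM in control and 4.41, 2.58 and 3.52 CPM in MaeaCsf1r-Cre replicates 1, 2 and 3. *Zmat3* (chr3:32334792-32366014, -) measured 4.49, 3.18 and 5.35 CPM in control and 5.58, 3.99 and 5.165 CPM in MaeaCsf1r-Cre replicates. In both genes replicate 2 was the lowest of each group, and the groups overlapped. The log2 fold changes were 0.08 for *Phlda3* (95% interval -0.49 to 0.64) and 0.16 for *Zmat3* (95% interval -0.39 to 0.70). They had about 103 to 340 reads a library, against 6503 to 13656 for *Trp53*, and their intervals were wider than that of *Trp53*. The part of read number in these widths was not tested. Without control replicate 2 both differences turned to just below 0.

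*Gtse1* encodes a microtubule-binding protein of the G2 phase that moves p53 out of the nucleus, and it is both a p53 target and a gene of dividing cells. *Gtse1* (chr15:85859745-85876573, +) measured 31.8, 23.8 and 23.7 CPM in control and 38.8, 24.5 and 31.8 CPM in MaeaCsf1r-Cre replicates 1, 2 and 3. Each MaeaCsf1r-Cre library was above the control library of the same number, while the groups as wholes overlapped. The means were 26.4 ± 4.601 and 31.7 ± 7.13 CPM (SD, n = 3 each). They differed by 0.24 on the log2 scale, with a 95% interval of -0.23 to 0.72 (adjusted p = 0.967, limma). The difference was 0.09 without MaeaCsf1r-Cre replicate 1 and 0.41 without MaeaCsf1r-Cre replicate 2.

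A list of 20 genes of G2 and mitosis, such as cyclin B1 and the mitotic kinases, was set beside *Gtse1*. All 20 had a higher mean in MaeaCsf1r-Cre HSCs, against 39.1% of all genes tested, at a median log2 fold change of 0.15, or 0.25 with the length correction. By limma 0 of 20 passed the test, and at an unadjusted p under 0.05 there were also 0, against 0.803% of all genes that were higher. Under the replicate block 0 passed and 1, *Mki67*, had an unadjusted p under 0.05, against 3.11% of all genes that were higher. With the length correction added to the block, the unadjusted p ran from 0.00186 for *Mki67* to 0.190 for *Bub1b* (limma). All of the 20 but *Ccnb1*, *Ccnb2*, *Cdc20*, *Bub1b*, *Tpx2*, *Cenpf* and *Nusap1* were then under 0.05, each of them higher. Among all genes 1828 of 12835 were under 0.05 in either direction. Of the 20, 0 passed adjustment. In all 3 same-numbered pairs 5 of 20 were higher, against 13.2% of all genes. In the controls the mean of the list, centred on the 6 libraries, was 0.12, -0.21 and -0.15 for replicates 1, 2 and 3 on the log2 scale, and that of *Gtse1* was 0.15, -0.25 and -0.26. In MaeaCsf1r-Cre replicates 1, 2 and 3 the list stood at 0.32, -0.29 and 0.21 and *Gtse1* at 0.43, -0.21 and 0.15. The libraries in which *Gtse1* was high were thus those in which the list was high, and MaeaCsf1r-Cre replicate 2 was low in both. This pattern was not particular to the list. Over the 6 libraries *Gtse1* had a Pearson's r of 0.998 with *Tars2* and of 0.826 with *Trp53* on log2(CPM + 1).

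**Figure D3:**
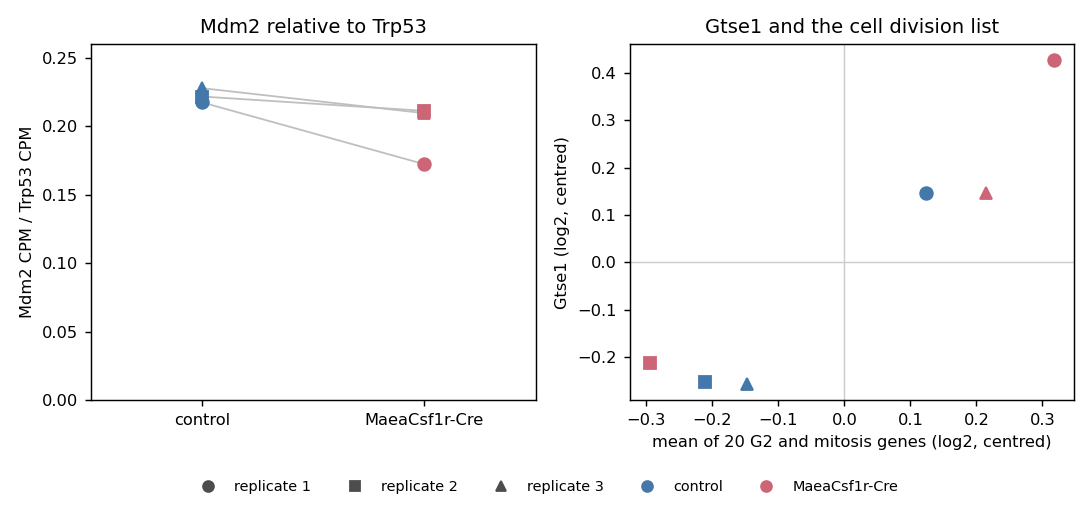
Left, the CPM of *Mdm2* divided by that of *Trp53* (y axis, from 0) in each library, by group. This ratio was chosen after the values had been seen. The controls sit at 0.217 to 0.228 and the MaeaCsf1r-Cre libraries at 0.172 to 0.211. Right, *Gtse1* (y axis) against the mean of 20 genes of G2 and mitosis (x axis), both as centred log2 values, with 1 point per library; libraries high in the list are high in *Gtse1*, up to MaeaCsf1r-Cre replicate 1 at 0.32 and 0.43.

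The balance of *Mdm2* to *Trp53* RNA was looked at as a ratio within each library, a measure chosen after the values had been seen. The ratio of their CPM was 0.217, 0.222 and 0.228 in the controls against 0.172, 0.211 and 0.2095 in MaeaCsf1r-Cre replicates 1, 2 and 3. The groups did not overlap, though MaeaCsf1r-Cre replicates 2 and 3 were close to the lowest control. The means were 0.222 ± 0.00521 and 0.198 ± 0.0220 (SD, n = 3 each). An exact two-sided permutation test gave p = 0.1, which is the smallest that 3 libraries against 3 can give, so it could not pass 0.05. The test restates the separation already seen, and how many other gene pairs separate the groups was not counted. The ratio of *Mdm4* to *Mdm2* was 0.884, 0.956 and 0.926 in control and 0.931, 0.634 and 0.927 in MaeaCsf1r-Cre replicates, with overlapping groups (exact two-sided permutation p = 0.7).

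Levels were compared between genes as CPM per kilobase of the longest coding transcript, averaged over the 3 control libraries. *Trp53* led with 108 CPM per kilobase, followed by *Ccng1* at 24.7, *Mdm2* at 14.2 and *Aen* at 11.7 CPM per kilobase. *Gtse1* (9.82), *Mdm4* (5.80), *Trp53inp1* (4.91), *Phlda3* (2.27) and *Zmat3* (0.556 CPM per kilobase) came after. The ranges of *Aen* and *Gtse1* over the control libraries overlapped, as did those of *Mdm4* and *Trp53inp1*. Within each control library *Aen* was above *Gtse1*, at 12.03, 10.84 and 12.36 against 11.80, 8.85 and 8.82 CPM per kilobase. *Mdm4* was below *Trp53inp1* in control replicate 1 (5.87 against 6.24) and above it in replicates 2 and 3. The order of the genes depends on the length used. Per kilobase of all exons together, *Mdm2* (8.80) came after *Aen* (10.03) and *Gtse1* (9.64 CPM per kilobase), and *Mdm4* (2.78) after *Trp53inp1* (4.10 CPM per kilobase).

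The wider set of p53 target genes was then described from a list of 40 other textbook targets, of which 37 were expressed highly enough to be tested. Of these, 13 had a higher and 24 a lower mean in MaeaCsf1r-Cre HSCs, with a median log2 fold change of -0.07 beside -0.06 for all genes tested. None passed the test (limma, smallest adjusted p = 0.967, or 0.218 with the replicate block). At an unadjusted p under 0.05 there were 2 lower and 1 higher genes, against 3.19% and 0.803% of all genes. With the block these were 5 and 2 genes, against 10.8% and 3.11%. The groups did not overlap in 2 genes that were lower, against 6.06% of all genes, and in 1 gene that was higher, against 2.49%.

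Among targets for arrest and death, *Cdkn1a*, the p21 inhibitor of cyclin-dependent kinases, measured 5.07, 4.70 and 3.30 CPM in control and 4.53, 7.25 and 4.51 CPM in MaeaCsf1r-Cre replicates. Its groups overlapped, at a log2 fold change of 0.25 (standard error 0.25). *Bax*, which opens the outer mitochondrial membrane, measured 42.7, 29.8 and 39.0 CPM in control and 52.3, 35.9 and 47.3 CPM in MaeaCsf1r-Cre replicates. Each *Bax* value was above that of the control with the same number, by 0.28, 0.26 and 0.27 on the log2 scale, while the groups overlapped and the adjusted p was 0.967, or 0.315 with the block (limma). *Bbc3*, which encodes the BH3-only protein PUMA, measured 8.86, 9.74 and 7.83 CPM in control and 4.89, 7.38 and 8.57 CPM in MaeaCsf1r-Cre replicates, with overlap. *Pmaip1*, which encodes NOXA, was too low to test, at no more than 0.993 CPM in any library. Of these 4 genes *Cdkn1a* and *Bax* had higher means and *Bbc3* a lower one, and none of the 3 that could be tested passed.

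The 5 targets with the smallest p were *Sesn1*, *Tap1*, *Polk*, *Plk2* and *Ccnd1*. *Sesn1*, a sestrin that restrains mTORC1, measured 87.0, 109 and 88.6 CPM in control and 46.6, 54.3 and 79.0 CPM in MaeaCsf1r-Cre replicates. Each deleted library lay below each control, and the log2 fold change of -0.68 had a standard error of 0.20. By limma its adjusted p was 0.967, or 0.218 once replicate numbers were blocked. Like *Trp53inp1*, *Sesn1* was nearest to the controls in MaeaCsf1r-Cre replicate 3. *Polk*, a DNA polymerase that copies past damaged bases, measured 10.8, 10.6 and 11.1 CPM in control and 5.74, 5.10 and 10.2 CPM in MaeaCsf1r-Cre replicates, also without overlap and also nearest to the controls in replicate 3. *Plk2*, a kinase of the centrosome cycle, measured 1.46, 5.68 and 5.37 CPM against 0.558, 0.634 and 3.02 CPM, and *Ccnd1*, cyclin D1, measured 9.49, 15.85 and 18.6 CPM against 5.56, 12.1 and 10.3 CPM. The groups of *Plk2* and *Ccnd1* overlapped.

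*Tap1* was the target that was higher in each deleted library than in each control. It encodes a subunit of the peptide transporter of antigen presentation and lies within the major histocompatibility complex on chromosome 17. *Tap1* measured 183, 215 and 180.5 CPM in control and 278, 240.2 and 235 CPM in MaeaCsf1r-Cre replicates, a difference of 0.38 on the log2 scale with a standard error of 0.13. Its limma adjusted p was 0.967, or 0.251 under the replicate block.

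**Figure D4:**
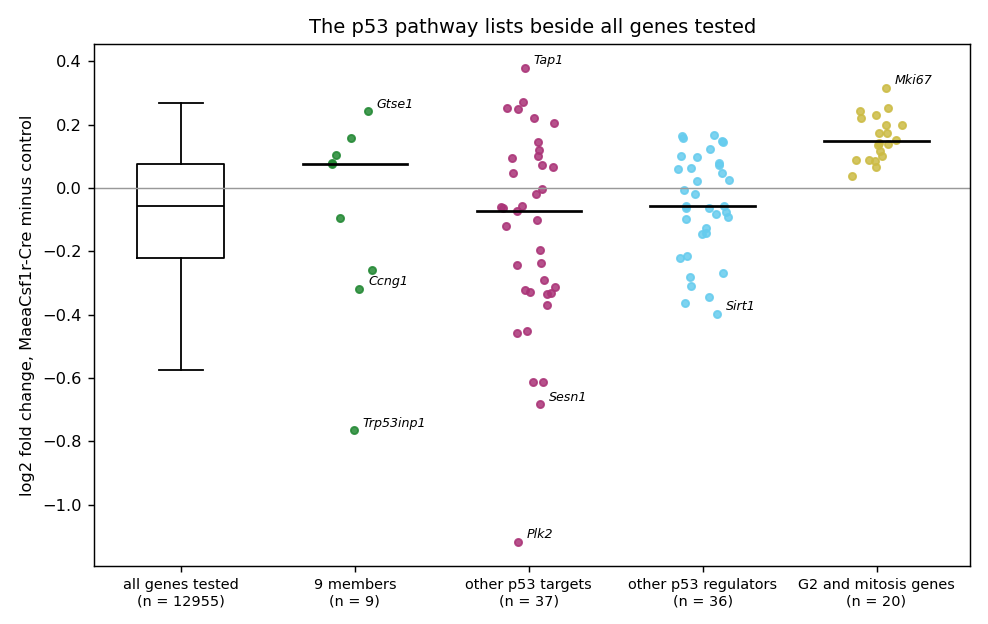
The log2 fold change (y axis, MaeaCsf1r-Cre minus control) of each gene of the p53 lists and of the 20 genes of G2 and mitosis beside that of all 12955 genes tested (x axis, the lists with the number of genes tested). The 37 other targets reach from -1.12 to 0.38 and the 36 other regulators from -0.40 to 0.17, while the 20 division genes all lie above 0.

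Genes that act on p53 were described from a list of 37 kinases, acetylases, ubiquitin ligases, deubiquitinases and nucleolar proteins, of which 36 were tested. The gene left out was *Cdkn2a*, which encodes the MDM2 inhibitor ARF and was listed at 0 in all 6 libraries. The regulators split into 15 with a higher and 21 with a lower mean, with a median log2 fold change of -0.06, and none passed the test (limma, smallest adjusted p = 0.967, or 0.247 with the replicate block). At an unadjusted p under 0.05 there were 2 lower and 0 higher regulators, against 3.19% and 0.803% of all genes, or 3 and 0 with the block, against 10.8% and 3.11%. In 4 of them, *Sirt1*, *Hipk1*, *Ep300* and *Yy1*, the MaeaCsf1r-Cre libraries all lay below the controls, against 6.06% of all genes, and in 0 all lay above, against 2.49%.

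*Sirt1*, a deacetylase that removes acetyl groups from p53, measured 27.6, 30.2 and 29.5 CPM in control and 22.5, 18.6 and 24.8 CPM in MaeaCsf1r-Cre replicates. The difference was -0.40 on the log2 scale (standard error 0.16), which did not pass (adjusted p = 0.967, limma). *Hipk1*, of a family of kinases that phosphorylate p53, measured 180.4, 203 and 208 CPM in control and 142, 159.9 and 176 CPM in MaeaCsf1r-Cre replicates. *Ep300*, the acetyltransferase p300 that serves p53 as a coactivator, measured 72.8, 91.2 and 73.8 CPM against 71.8, 58.6 and 64.6 CPM, so that its groups lay next to each other without overlapping. *Trp53bp1*, which encodes the double-strand break protein 53BP1, measured 39.5, 63.3 and 48.3 CPM against 34.4, 45.6 and 37.1 CPM, with overlap. *Ppp1r13b*, which encodes ASPP1, a partner that directs p53 to genes of apoptosis, measured 53.2, 66.7 and 52.8 CPM against 32.5, 46.4 and 57.4 CPM, with overlap. With the length correction the median of the regulators was 0.08 and that of the other targets 0.01, so the side of 0 on which the lists lay depended on this correction. All genes tested then had a median of 0.03. With the correction the log2 difference went from -0.31 to -0.14 for *Hipk1*, from -0.28 to -0.09 for *Ep300* and from -0.34 to -0.16 for *Trp53bp1*. That of *Sirt1* went from -0.40 to -0.28 and that of *Ppp1r13b* from -0.36 to -0.25.

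The genes whose pattern over the 6 libraries was most like that of 3 members were listed as a description, since 6 points taken from a table of this length give high correlations for many genes. For *Trp53* these were *Plscr1*, *Rnf31* and *Them6* (Pearson's r of 0.993, 0.9895 and 0.988 on log2(CPM + 1)). For *Mdm2* they were *Krt80*, *Mthfsd* and *Shf* (0.996, 0.987 and 0.979). For *Gtse1* they were *Tars2*, *Urod* and *Ndufa10* (0.998, 0.9965 and 0.996). The points share library, depth and group. *Plscr1*, for example, measured 61.2, 47.4 and 42.6 CPM in control and 66.6, 54.6 and 54.1 CPM in MaeaCsf1r-Cre replicates, with replicate 1 the highest of each group as for *Trp53*.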

How the data were processed

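The authors trimmed reads (Trim Galore) from SMART-Seq v4 and Nextera XT libraries, used STAR 2.5.3a to align them to mm10, and obtained normalised values per Ensembl transcript model with Partek Flow. What was deposited is CPM per gene symbol, each with 0.0001 added, which was subtracted. Steps between low values gave 32927000 to 60900000 reads behind the scaling, so that 3 reads were 0.0493 to 0.0911 CPM (counting error only). Only 73.1 to 75.8% of values under 0.5 CPM were whole reads within 0.02, so no count test was used. Strand handling in counting is not given in the sources used here.

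The 12955 genes reaching 1 CPM in 3 or more libraries entered the test, made on log2(CPM + 1) with limma 3.58.1 (R 4.3.3), mean-variance trend, two-sided, with Benjamini-Hochberg adjustment over all of them and a threshold of 0.05. Fold changes on this scale understate those of low genes. Replicate numbers come from the labels. Libraries of the same number deviated from their group means together (Pearson's r across genes 0.627, 0.523 and 0.397, against -0.459 to -0.0538 for the others), so the fit was repeated with the number as a block. Alternatives were a pseudocount of 0.1, other filters, median-ratio and quantile scaling, no trend, a loess length correction (span 0.5, union exons of GENCODE M21) and each library left out. The plain fit was also run on simulated libraries with changes of known size. These were drawn without the shared replicate pattern or the length trend of the data, so that run does not cover either. Python 3.11.15 and scipy 1.17.1 were also used.

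The members and gene lists were chosen with earlier results of these data known. Named genes were the members, *Maea*, the 5 genes of smallest p in each pathway list, *Cdkn1a*, *Bax*, *Bbc3*, *Pmaip1*, *Trp63*, *Trp73* and the genes most like *Trp53*, *Mdm2* and *Gtse1*. Others were named after their values were seen.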

Additional observations from a re-analysis of the deposited data

How the results depend on the processing

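No member, other p53 target or other regulator had an adjusted p under 0.05 (limma) in any of the 15 alternatives run. Among all genes tested, 1 was called; it became 0 at a filter of 10 CPM (302 at an unadjusted p under 0.05) and 13 with the replicate block together with the length correction, and ranged from 0 to 3 with a library left out (0 without control replicate 2 or 3, with 266 and 331 at an unadjusted p under 0.05, and 3 without MaeaCsf1r-Cre replicate 3). The replicate block alone kept the count at 1, raised the genes with an unadjusted p under 0.05 from 517 to 1805, and changed no call of a member. *Mdm2* turned to 0.019 (log2) under the length correction, with or without the block. With a library left out the log2 fold change ranged from -0.066 to 0.232 for *Phlda3*, from -0.008 to 0.293 for *Zmat3*, from -0.069 to 0.286 for *Aen*, from -1.058 to -0.567 for *Trp53inp1*, from -0.365 to -0.121 for *Mdm4*, from -0.478 to -0.184 for *Ccng1*, from 0.088 to 0.408 for *Gtse1*, from 0.039 to 0.135 for *Trp53* and from -0.133 to -0.038 for *Mdm2*. The cause was not tested. *Phlda3* and *Zmat3* were not tested at a filter of 10 CPM, being too low. Depth was higher in each MaeaCsf1r-Cre library than in each control library, and its part in these values cannot be told apart from that of the group.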
